A study of Mus musculus with 10 samples.

Results

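Livers of 4-week-old male mice that carried 1 of 2 different inducible hairpins against Sod2, switched on in the womb, were compared with each other across the transcriptome. Members were chosen by sample title: 3 arrays of livers with hairpin shRNA 1 and 3 arrays of livers with hairpin shRNA 2, so 6 of the 10 arrays of the series. Mice of the shRNA 1 group had the genotype Rosa26-rtTA + SOD2 shRNA 1, those of the shRNA 2 group Rosa26-rtTA + SOD2 shRNA 2, and 4 littermates with Rosa26-rtTA alone are shown as controls for reference. All 3 groups shared the rtTA transactivator, driven from the broadly active Rosa26 locus, and the doxycycline chow (625 mg/kg) given to their mothers, with the knockdown running from day 0 to day 12.5 of gestation. The livers were thus sampled weeks after doxycycline had been withdrawn.

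Sod2 encodes the manganese superoxide dismutase of the mitochondrial matrix, which turns superoxide made by the respiratory chain into hydrogen peroxide. A hairpin can also silence unintended transcripts through partial matches of its seed, so 2 hairpins of different sequence against the same gene are a usual control. Liver is rich in SOD2 and answers to redox stress, hormones, feeding and time of day with large swings of some genes. Per the series design, the shRNA 2 cohort supplied 3 of the 4 controls and the other cohort 1, without saying which. Hairpin and cohort therefore coincide in the 6 shRNA arrays, and a difference between the hairpin groups does not by itself tell them apart. Control values are given beside the genes that passed, since whichever controls belong to it, 3 of the 4 share the cohort of the shRNA 2 livers. The labels do not state that arrays of a group came from separate animals, in which case p-values measure only the spread between these samples.

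Levels are deposited log2 values of Affymetrix whole-transcript arrays, 1 value per transcript cluster. Array medians lay between 4.06 and 4.17, and all 45 pairs of arrays correlated at 0.981 to 0.992 over genes. Pairs within shRNA 1 correlated at 0.989 to 0.992, pairs within shRNA 2 at 0.984 to 0.990, and pairs across the hairpins at 0.984 to 0.989, so the 2 groups did not form separate blocks. Replicate 3 of shRNA 2 stood apart: it had the lowest mean correlation with its own group (0.985) of the 6 shRNA arrays, the lowest mean over the list of male-biased genes, and the lowest levels of several glucocorticoid targets, given with those genes. The hepatocyte markers Alb, Ttr and Apob were among 12 of 12 hepatocyte genes that passed the level filter.

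Of 22180 genes with a single-symbol cluster, 13308 passed a filter on mean level over the 10 arrays (log2 3.98 or more) and were tested with limma for shRNA 1 minus shRNA 2. After Benjamini-Hochberg adjustment 2 genes had an adjusted p under 0.05, 0.0150% of those tested: Dusp1 was higher in the shRNA 1 livers (0.00751% of genes called in that direction) and Ctse was higher in the shRNA 2 livers (0.00751%). At an unadjusted p under 0.05, 801 genes were called (6.02%), where chance alone would give 665. Of those, 442 (3.32% of genes tested) were higher in the shRNA 1 livers and 359 (2.70%) in the shRNA 2 livers. The 3 shRNA 1 values lay wholly above the 3 shRNA 2 values for 791 genes (5.94%) and wholly below them for 713 genes (5.36%). Each outcome is 1 of the 20 possible splits of 3 against 3, so both shares were close to chance. The mean was higher in the shRNA 1 livers for 51.1% of genes, the median difference over all genes tested was 0.00 and the median absolute difference 0.0943 on the log2 scale. In all, 25 genes differed by more than 1 in absolute value, 15 toward shRNA 1 and 10 toward shRNA 2. Below, a gene is said to have passed only at an adjusted p under 0.05. All other values are given as measured, with the count at an unadjusted p under 0.05 read against these background shares.

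**Figure D1:**
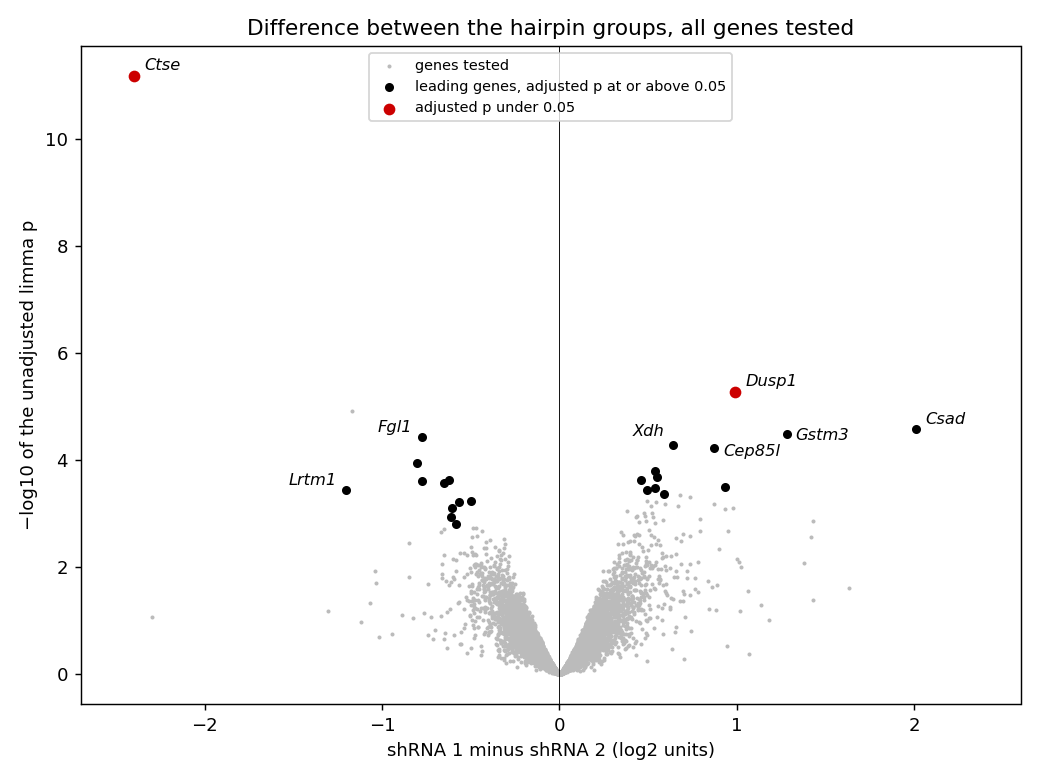
Difference in log2 level (shRNA 1 minus shRNA 2, x axis) against the −log10 of the unadjusted limma p (y axis) for the 13308 genes tested, with genes at an adjusted p under 0.05 in red and the other leading genes in black. Ctse sits alone at the upper left with a difference of -2.40, Dusp1 is the red point on the right at 0.99, and Csad lies at 2.01 without passing.

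The targeted gene itself did not separate the hairpins. Sod2 had levels of 10.43, 10.43 and 10.32 in the shRNA 1 livers and 10.34, 10.47 and 10.24 in the shRNA 2 livers, and of 10.38, 10.49, 10.33 and 10.33 in the controls. The 3 groups overlapped, with a difference between hairpins of 0.04 (SE 0.10, adjusted p = 0.985). An exact two-sided permutation test of the 6 shRNA arrays gave p = 0.7, where 0.1 is the smallest p that 3 against 3 allows. The arrays were made after the knockdown had ended, so they do not check the depth of the knockdown in the embryo. Other enzymes that dispose of superoxide and peroxide were also close: 28 of the 31 listed genes passed the level filter, 14 with a higher mean in the shRNA 1 livers and 14 in the shRNA 2 livers, with a median difference of 0.01, and none at an unadjusted p under 0.05. Its member with the largest test statistic, Sod3, the extracellular superoxide dismutase, had levels of 6.49, 6.43 and 6.40 in the shRNA 1 livers and 6.74, 6.52 and 6.73 in the shRNA 2 livers and a difference of -0.22 (SE 0.12, adjusted p = 0.887). Txnrd1, the cytosolic thioredoxin reductase, differed by 0.18 (SE 0.12, adjusted p = 0.909) and Gpx7, a peroxidase of the endoplasmic reticulum, by 0.23 (SE 0.13, adjusted p = 0.896).

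Ctse encodes cathepsin E, an aspartic protease of endosomes that is best known from stomach lining and immune cells. Its levels were 3.89, 3.92 and 3.79 in the shRNA 1 livers and 6.33, 6.24 and 6.24 in the shRNA 2 livers, and 3.90, 4.03, 4.03 and 3.92 in the controls. Every shRNA 2 liver was thus more than 2 log2 units above every other liver, while shRNA 1 livers and controls shared 1 low range near the level filter. The difference of -2.40 (SE 0.09, adjusted p = 8.72e-08) is a 5.28-fold higher level in the shRNA 2 livers. It passed the filter through the shRNA 2 arrays, since the level in the other 7 arrays lay at or just around the filter. The call was made in all 20 alternative settings that tested the gene, including each setting that left out an array.

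No tested neighbour of Ctse on chromosome 1 passed, nor did any of its relatives. Of its 5 annotated neighbours on each side (gene order of RefSeq's GRCm38.p6 annotation), 6 were tested. Pm20d1, which makes N-acyl amino acids and lies 3 genes away, came nearest, with 8.81, 8.76 and 9.01 in the shRNA 1 livers and 9.36, 9.32 and 9.18 in the shRNA 2 livers. Its groups did not overlap and its difference was -0.43 (SE 0.14, adjusted p = 0.687), with an unadjusted p of 0.00999. Rassf5, a Ras effector on the other side of Ctse, also did not overlap at -0.24 (SE 0.15, adjusted p = 0.9). Ikbke differed by -0.24, Srgap2 by 0.19, and the nearest neighbours Avpr1b and Rab7b were below the level filter. Among cathepsins and other aspartic proteases, 17 of the 20 listed genes passed the level filter, 3 with a higher mean in the shRNA 1 livers and 14 in the shRNA 2 livers, with a median difference of -0.06, and Ctse was the 1 member that passed. Ctsa and Ctsc, both lysosomal proteases, differed by -0.18 (SE 0.10, adjusted p = 0.896) and -0.23 (SE 0.16, adjusted p = 0.909).

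Cell types that could carry Ctse were read from marker lists. Of 10 markers of gallbladder and mucous epithelium, 7 lay below the level filter, among them Agr2, Anxa10, Cldn18, Gkn3 and Psca, and their summed linear level, on the log2 scale, ranged from 7.66 to 7.99 in shRNA 1 livers, 7.73 to 8.91 in shRNA 2 livers and 7.89 to 8.86 in controls. B-cell markers summed to 8.12 to 8.21 in the shRNA 1 livers and 8.20 to 8.34 in the shRNA 2 livers, with 4 of the 5 that passed the filter higher in shRNA 2. Macrophage markers summed to 12.05 to 12.22 in the shRNA 1 livers and 12.10 to 12.43 in the shRNA 2 livers. All 13 macrophage markers passed the filter, 11 had a higher mean in the shRNA 2 livers, and their median difference was -0.13. Lyz2, a lysozyme of myeloid cells, had 8.46, 8.38 and 8.44 in the shRNA 1 livers and 8.86, 8.64 and 8.77 in the shRNA 2 livers, a difference of -0.33 (SE 0.10, adjusted p = 0.687). Timd4, a receptor of resident Kupffer cells, had 7.12, 6.94 and 7.11 in the shRNA 1 livers and 7.37, 7.46 and 7.17 in the shRNA 2 livers, a difference of -0.28 (SE 0.12, adjusted p = 0.816). These macrophage differences of 0.33 or less stand beside a Ctse difference of -2.40. Their part in it was not tested, and in bulk tissue more cells of a type cannot be told from more RNA per cell. The genes whose levels followed Ctse most closely over the 10 arrays were Nup50 (Pearson r = 0.94), Cyp2j6 (0.92), Rprd1a (-0.89), Dusp1 (-0.89) and Ccdc93 (0.89). Those arrays are the ones that define the hairpin groups, so this is a description only.

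Dusp1 encodes a phosphatase that switches off MAP kinases. Its transcript is made within minutes of many stimuli and is also induced by glucocorticoids. The 250 bases before its annotated start (RefSeq, GRCm38.p6, chr17:26508473-26508722, minus strand) are shown because they hold a full cAMP response element, TGACGTCA, in capitals and read the same on both strands; the letters occur in 1.77% of the 27025 genes with a promoter in the table.
Dusp1: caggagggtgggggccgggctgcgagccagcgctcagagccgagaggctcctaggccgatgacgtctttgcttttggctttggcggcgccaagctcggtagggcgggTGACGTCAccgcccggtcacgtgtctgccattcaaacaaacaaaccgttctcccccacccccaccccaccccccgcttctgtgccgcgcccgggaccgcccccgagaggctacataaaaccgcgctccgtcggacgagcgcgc
In these livers Dusp1 had levels of 8.67, 8.37 and 8.43 in the shRNA 1 livers and 7.57, 7.54 and 7.40 in the shRNA 2 livers, and of 8.10, 7.96, 8.04 and 8.37 in the controls. The shRNA 2 livers lay below every control. The shRNA 1 livers overlapped the top of the control range, with replicate 2 (8.3702) just under control 4 (8.3723). The difference of 0.99 (SE 0.13, adjusted p = 0.035) is 1.98-fold. The call held in 8 of 21 alternative settings and was lost without any 1 of the 6 shRNA arrays or without control 1, 2 or 3 (adjusted p of 0.0101 to 0.169 over the settings that left out 1 array). Its 9 annotated neighbours on chromosome 17 with a tested cluster differed by -0.19 to 0.17, and none passed. Over the 10 arrays, Cilk1 (r = -0.97), Dync1h1 (0.91), Serpind1 (-0.91), Rhbdf2 (0.90) and Pam16 (0.90) had the patterns closest to it.

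**Figure D2:**
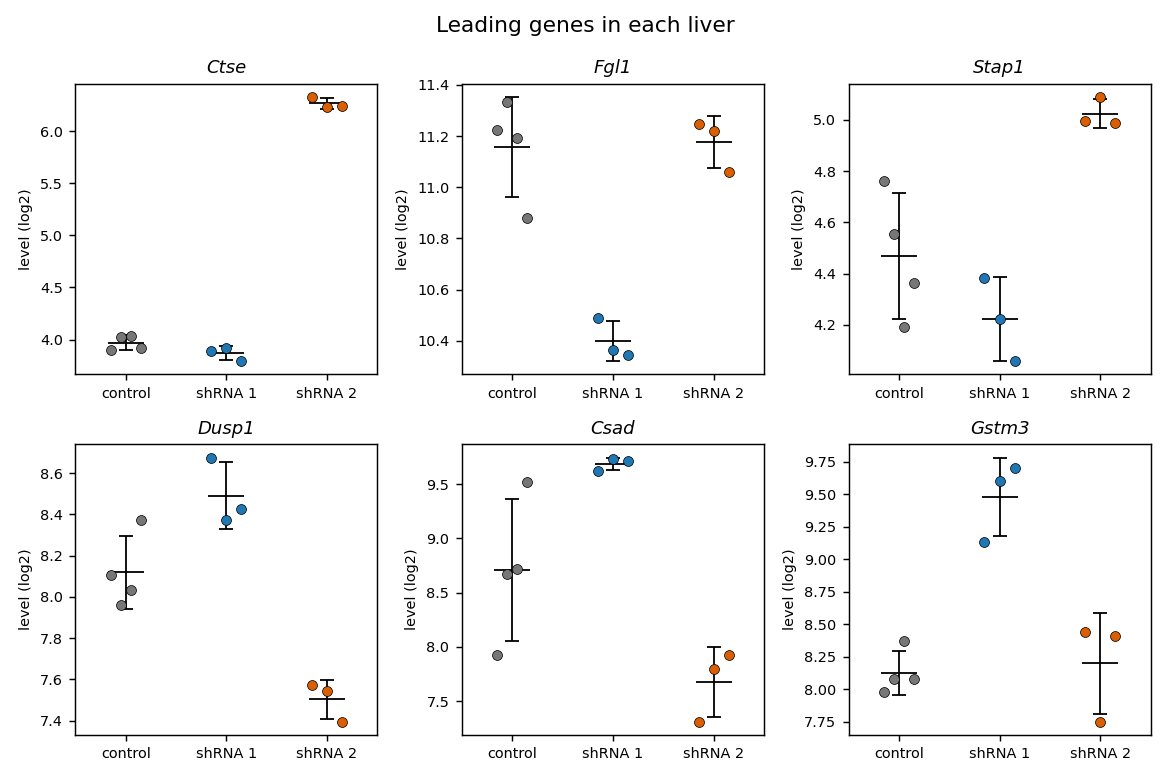
Log2 level (y axis) of 6 leading genes in each control, shRNA 1 and shRNA 2 liver, with group means and SD as bars. Ctse is high in the 3 shRNA 2 livers alone (6.24 to 6.33), Fgl1 is low in the 3 shRNA 1 livers (10.35 to 10.49), Stap1 is high and Dusp1 low in the shRNA 2 livers, and Csad and Gstm3 are highest in the shRNA 1 livers.

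Other immediate early genes stood nearer to the background. On that list 24 of the 25 listed genes passed the level filter, 20 with a higher mean in the shRNA 1 livers and 4 in the shRNA 2 livers, with a median difference of 0.11. Dusp1 passed. At an unadjusted p under 0.05 were 3 genes (Dusp1 included) toward shRNA 1 and 1 toward shRNA 2, against 3.32% and 2.70% of all genes. Sgk1, a kinase of sodium transport, had 6.09, 5.91 and 5.92 in the shRNA 1 livers and 5.76, 5.54 and 5.77 in the shRNA 2 livers, a difference of 0.28 (SE 0.12, adjusted p = 0.784). Btg2, an antiproliferative factor, had 6.04, 5.84 and 5.86 in the shRNA 1 livers and 5.48, 5.30 and 5.92 in the shRNA 2 livers, which overlap. Nr4a1, an orphan receptor induced by growth signals, ran the other way with 4.34, 4.23 and 4.11 in the shRNA 1 livers and 4.43, 4.50 and 4.57 in the shRNA 2 livers and a difference of -0.28 (SE 0.12, adjusted p = 0.786). In the promoter table, 2 of the 20 tested members with an entry, Btg2 and Dusp1, held the TGACGTCA letters.

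Glucocorticoid targets, among which Dusp1 also counts, leaned toward shRNA 1 more widely. All 15 listed genes passed the level filter, 12 with a higher mean in the shRNA 1 livers, and the median difference was 0.33 against 0.00 over all genes. Dusp1 was the 1 gene that passed. Toward shRNA 1, 7 of the 15 had an unadjusted p under 0.05, against 3.32% of all genes, and none did toward shRNA 2. Tat, tyrosine aminotransferase, had 12.86, 12.90 and 12.45 in the shRNA 1 livers and 12.05, 12.31 and 12.18 in the shRNA 2 livers, a difference of 0.56 (SE 0.15, adjusted p = 0.564). Tsc22d3, which encodes the anti-inflammatory GILZ, had 7.21, 7.18 and 6.61 in the shRNA 1 livers and 6.52, 6.48 and 5.66 in the shRNA 2 livers, a difference of 0.78 (SE 0.24, adjusted p = 0.687). Both genes were lowest within shRNA 1 in replicate 3, and Tsc22d3 was lowest of all in replicate 3 of shRNA 2. Zbtb16, a zinc finger repressor, had 9.17, 9.08 and 8.88 in the shRNA 1 livers and 8.08, 8.56 and 6.34 in the shRNA 2 livers, where replicate 3 of shRNA 2 lay more than 1 log2 unit below any other liver. Its difference was 1.38 (SE 0.44, adjusted p = 0.687), and 0.72 without that replicate. As mean deviations over the list, the arrays stood at 0.53, 0.11 and 0.06 in the shRNA 1 livers and -0.14, -0.09 and -0.48 in the shRNA 2 livers.

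Heat shock proteins of the cytosol, chaperones induced by HSF1, gave a like pattern. On that list 14 of the 18 listed genes passed the level filter, 13 with a higher mean in the shRNA 1 livers and 1 in the shRNA 2 livers, with a median difference of 0.23. No member passed. Toward shRNA 1, 6 of the 14 had an unadjusted p under 0.05, against 3.32% of all genes, and none did toward shRNA 2. Hsph1, a nucleotide exchange factor for HSP70, had 7.22, 7.72 and 7.77 in the shRNA 1 livers and 7.12, 6.89 and 6.48 in the shRNA 2 livers, a difference of 0.74 (SE 0.19, adjusted p = 0.532). Hspa1b, the stress-induced HSP70, had 7.79, 7.75 and 7.39 in the shRNA 1 livers and 6.98, 7.03 and 5.87 in the shRNA 2 livers, a difference of 1.02 (SE 0.32, adjusted p = 0.687), with its lowest value in replicate 3 of shRNA 2. Hspa8, the constitutive HSP70, had 11.70, 11.63 and 11.71 in the shRNA 1 livers and 11.36, 11.44 and 11.47 in the shRNA 2 livers, a smaller difference of 0.26 (SE 0.10, adjusted p = 0.732). Stip1, which links HSP70 to HSP90, had 7.78, 8.27 and 7.89 in the shRNA 1 livers and 7.46, 7.73 and 7.52 in the shRNA 2 livers and 0.41 (SE 0.15, adjusted p = 0.732). None of these 4 overlapped between the hairpins, but they were picked by the largest test statistics of this same comparison.

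Some clock genes, whose levels follow the time of day, also differed between the hairpin groups in the values measured, though none passed. Dbp, an output factor of the clock that swings widely over the day, had 8.29, 7.01 and 7.16 in the shRNA 1 livers and 8.84, 7.74 and 9.09 in the shRNA 2 livers. Cry1, a repressor of the clock, had 5.39, 5.95 and 5.80 in the shRNA 1 livers and 5.07, 5.13 and 4.90 in the shRNA 2 livers, without overlap and with a difference of 0.69 (SE 0.19, adjusted p = 0.568). Npas2, a partner of the activator BMAL1, had 4.49, 5.23 and 5.24 in the shRNA 1 livers and 3.79, 4.72 and 3.95 in the shRNA 2 livers, and Nfil3, a repressor opposed to Dbp, had 6.44, 6.93 and 7.30 in the shRNA 1 livers and 6.12, 6.50 and 5.75 in the shRNA 2 livers. So replicates 1 and 3 of shRNA 2 and replicate 1 of shRNA 1 had high Dbp and low Npas2, as did control 1 with a Dbp level of 8.71 against 6.85 to 7.38 in the other controls. Over the whole list 17 of the 20 listed genes passed the level filter, 7 with a higher mean in the shRNA 1 livers and 10 in the shRNA 2 livers, with a median difference of -0.07, and none passed. A clock index (mean of Dbp, Per3, Tef, Nr1d2 and Ciart minus mean of Arntl, Npas2, Clock and Nfil3, as deviations) stood at 0.62, -0.95 and -1.07 in the shRNA 1 livers and 1.16, -0.38 and 1.64 in the shRNA 2 livers. With that index as a covariate, a setting chosen after seeing the data, the median of the heat shock list was 0.15 and Dusp1 differed by 1.02, slightly more than without it, with an adjusted p of 0.126 (0.00722 to 0.194 over all its alternatives). The labels give no time of day.

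**Figure D3:**
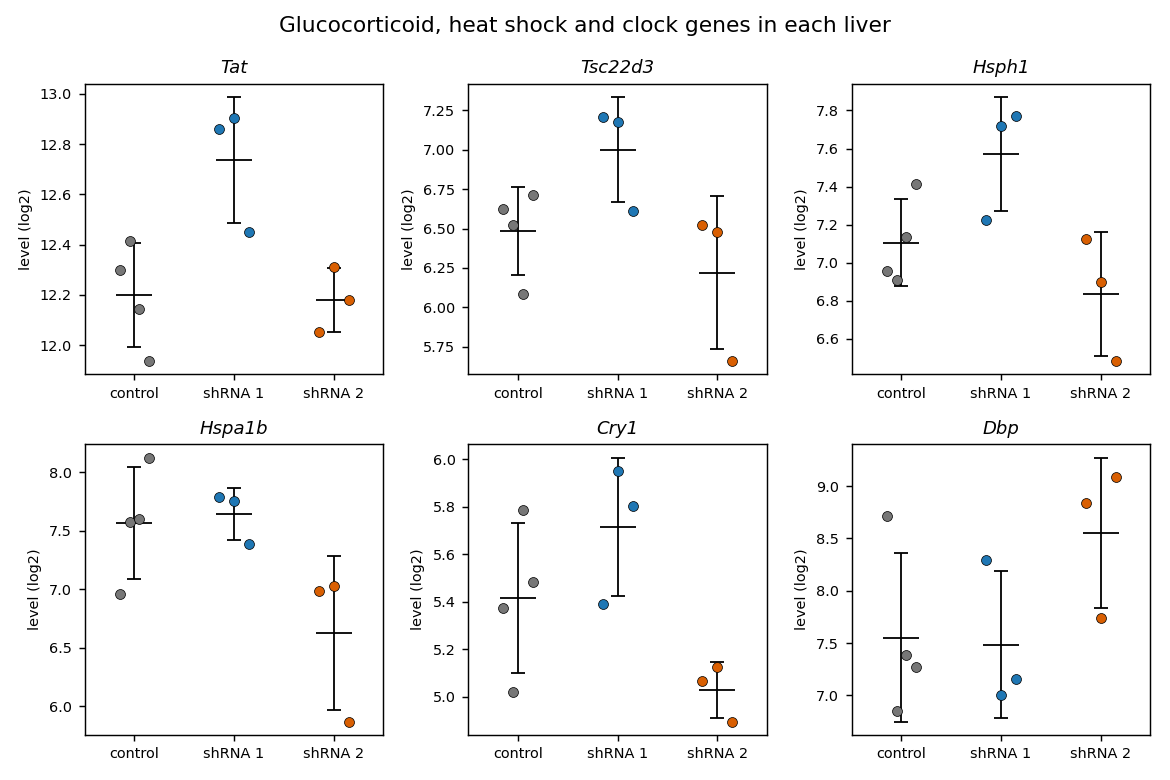
Log2 level (y axis) of 2 glucocorticoid targets, 2 heat shock genes and 2 clock genes in each liver, with group means and SD as bars. Tat, Tsc22d3, Hsph1, Hspa1b and Cry1 lie higher in every shRNA 1 liver than in any shRNA 2 liver, whereas Dbp overlaps and spreads from 7.01 to 9.09 over the 6 shRNA livers.

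Apart from Dusp1, the 11 leading genes with higher levels in the shRNA 1 livers did not pass and are given as values. Csad, the decarboxylase that commits cysteine sulfinate to taurine, showed the largest difference toward shRNA 1. Its levels were 9.62, 9.73 and 9.71 in the shRNA 1 livers and 7.31, 7.79 and 7.93 in the shRNA 2 livers, a difference of 2.01 (SE 0.30, adjusted p = 0.0821), while controls ran from 7.93 to 9.52 and so spanned most of the gap. Csad did pass in 6 of 21 alternative settings, among them the fit on the 6 shRNA arrays alone (adjusted p = 0.00434). Gstm3, a glutathione transferase of the mu class, had 9.14, 9.60 and 9.70 in the shRNA 1 livers and 8.44, 7.75 and 8.41 in the shRNA 2 livers, a difference of 1.28 (SE 0.20, adjusted p = 0.0821). Controls for it were 7.98, 8.08, 8.37 and 8.08, so the shRNA 1 livers alone stood out. Xdh, the xanthine dehydrogenase that ends purine breakdown in urate, had 9.11, 9.14 and 9.07 in the shRNA 1 livers and 8.54, 8.46 and 8.40 in the shRNA 2 livers, a difference of 0.64 (SE 0.10, adjusted p = 0.0971) with controls of 8.26 to 8.61. Cep85l, a centrosomal protein, had 8.05, 7.83 and 7.53 in the shRNA 1 livers and 6.80, 6.94 and 7.06 in the shRNA 2 livers, a difference of 0.87 (SE 0.14, adjusted p = 0.0993), and here the shRNA 2 livers lay below all controls.

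The remaining 7 of these genes differed by 0.46 to 0.93 with adjusted p of 0.214 to 0.281. None overlapped between the hairpins, which follows largely from their choice by the unadjusted p of this same comparison. Rhbdf2, which guides the protease ADAM17 to the cell surface, differed by 0.54 and sat above the controls in shRNA 1 and below them in shRNA 2. Xaf1, an interferon-induced partner of the apoptosis inhibitor XIAP, had 6.85, 6.60 and 6.72 in the shRNA 1 livers and 6.26, 6.14 and 6.13 in the shRNA 2 livers. Gbe1, the glycogen branching enzyme, had 9.38, 9.44 and 9.31 in the shRNA 1 livers and 8.94, 8.94 and 8.88 in the shRNA 2 livers. Acss2, which makes acetyl-CoA from acetate in the cytosol, had 10.46, 10.45 and 10.42 in the shRNA 1 livers and 10.01, 9.95 and 9.88 in the shRNA 2 livers, both above the control range of 9.48 to 9.78. Ublcp1, a phosphatase of the proteasome, differed by 0.93, Xk, a membrane protein of red cells and other tissues, by 0.54, and Rprd1a, which binds the tail of RNA polymerase II, by 0.59. Controls thus sided with the shRNA 2 livers for Xaf1 and Gbe1 and with the shRNA 1 livers for Rprd1a, at 7.21 to 7.53 against 7.46, 7.50 and 7.56 and 7.08, 6.69 and 6.99.

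Toward shRNA 2, Ctse was followed by 11 genes that did not pass. Fgl1, a fibrinogen-like protein that hepatocytes secrete, had 10.49, 10.36 and 10.35 in the shRNA 1 livers and 11.25, 11.22 and 11.06 in the shRNA 2 livers, a difference of -0.78 (SE 0.12, adjusted p = 0.0821). Controls were 11.23, 11.33, 11.19 and 10.88, so it was the shRNA 1 livers that lay low. Stap1, an adaptor of immune receptor signalling, had 4.38, 4.22 and 4.06 in the shRNA 1 livers and 4.99, 5.09 and 4.99 in the shRNA 2 livers, a difference of -0.80 (SE 0.14, adjusted p = 0.168), with the shRNA 2 livers above all controls. Lrtm1, a membrane protein with leucine-rich repeats, had 6.39, 5.62 and 5.91 in the shRNA 1 livers and 7.18, 7.28 and 7.07 in the shRNA 2 livers and the largest of these differences at -1.20 (SE 0.24, adjusted p = 0.255). Sucnr1, the receptor for extracellular succinate, had 5.90, 5.69 and 5.72 in the shRNA 1 livers and 6.51, 6.46 and 6.30 in the shRNA 2 livers, a difference of -0.65 (SE 0.13, adjusted p = 0.233). Adamdec1, a secreted metalloprotease of macrophages, had 5.37, 5.45 and 5.48 in the shRNA 1 livers and 6.22, 5.80 and 6.15 in the shRNA 2 livers, a difference of -0.62 (SE 0.12, adjusted p = 0.233). Adgrf1, an adhesion receptor, had 7.09, 7.51 and 7.09 in the shRNA 1 livers and 8.04, 7.89 and 8.09 in the shRNA 2 livers, a difference of -0.78 (SE 0.15, adjusted p = 0.233). Of these 6 genes, Stap1, Lrtm1 and Sucnr1 were above all controls in shRNA 2, and Fgl1, Adamdec1 and Adgrf1 were below all controls in shRNA 1. Apcs, the serum amyloid P component, had 8.94, 9.10 and 9.03 in the shRNA 1 livers and 9.47, 9.72 and 9.58 in the shRNA 2 livers against 9.85, 9.996, 9.73 and 9.55 in the controls. The last 4, Rwdd3, Adgb, Rilpl2 and Pdilt, differed by -0.50, -0.61, -0.61 and -0.58, with adjusted p of 0.31 to 0.433. Gm10272, a predicted gene passed over by the naming rule and singled out here after its values were seen, had 4.25, 4.17 and 3.68 in the shRNA 1 livers and 5.17, 5.41 and 5.03 in the shRNA 2 livers, a difference of -1.17 (SE 0.16, adjusted p = 0.0537). It passed in 4 alternative settings.

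**Figure D4:**
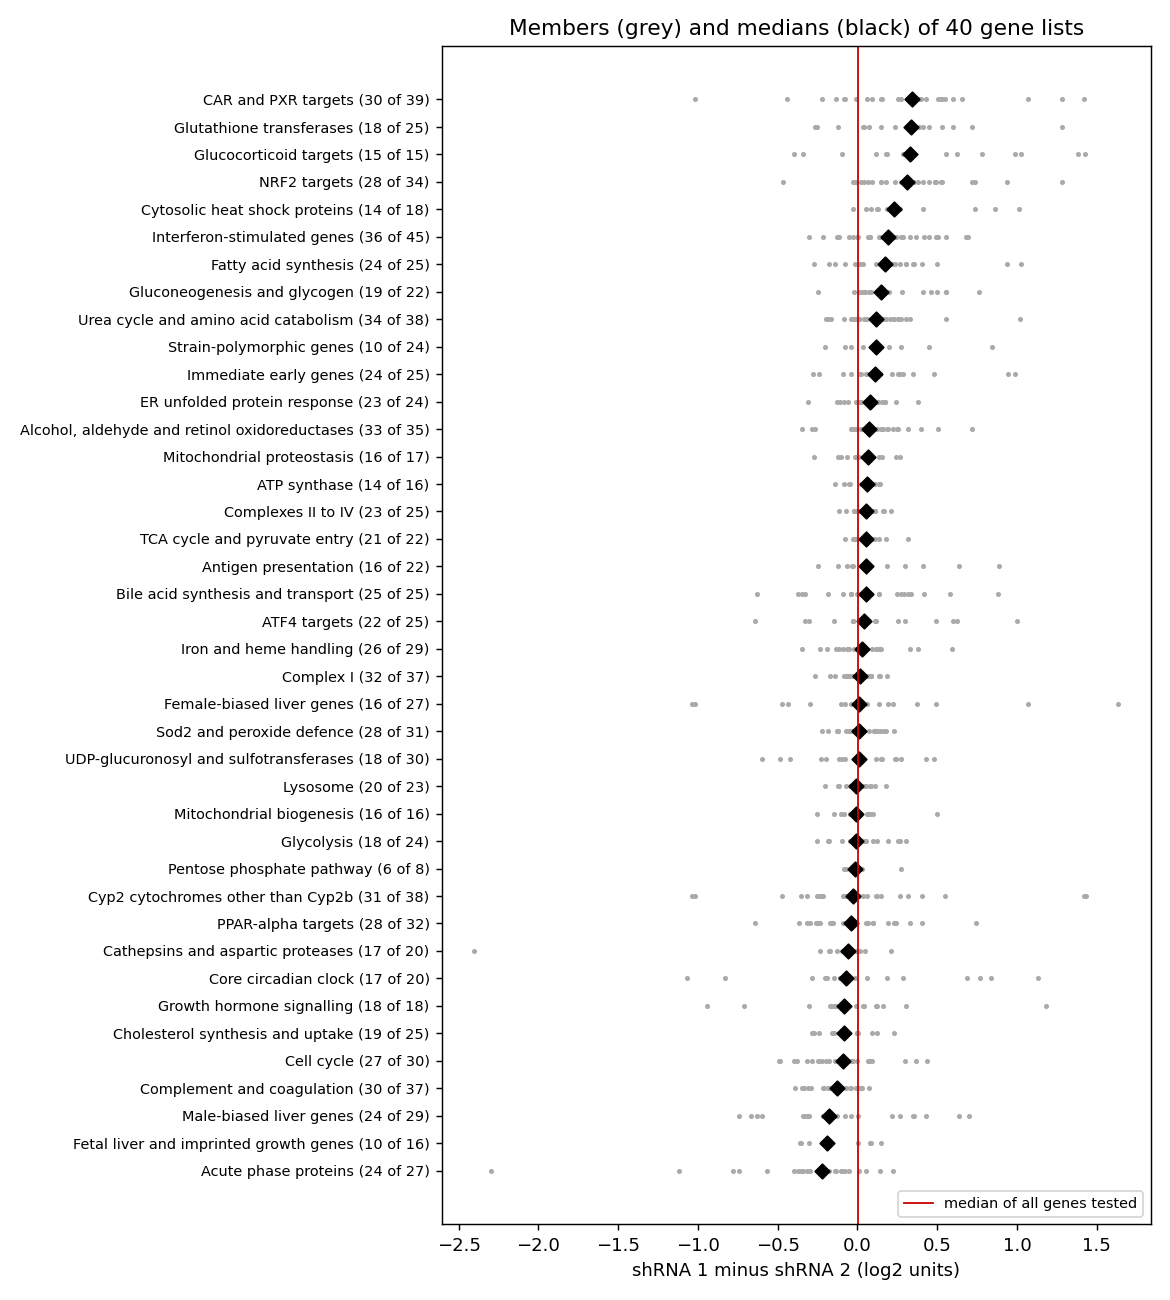
Differences (shRNA 1 minus shRNA 2, log2 units, x axis) of the tested members of 40 gene lists, with list medians as black diamonds and the median of all genes tested as a red line; the axis label of each list gives tested members of all members. CAR and PXR targets (0.34), glutathione transferases (0.34) and glucocorticoid targets (0.33) have the highest medians and acute phase proteins the lowest (-0.22).

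Over 40 gene lists, 25 medians were positive and 15 negative, 15 exceeded 0.1 in absolute value, and 3 lists (immediate early genes, glucocorticoid targets and cathepsins) held a gene that passed. CAR and PXR targets, glutathione transferases, glucocorticoid targets and NRF2 targets had the highest medians. NRF2 is the transcription factor that induces glutathione enzymes and reductases when its inhibitor KEAP1 is oxidized, and CAR and PXR are nuclear receptors for foreign compounds and steroids. Among NRF2 targets 28 of the 34 listed genes passed the level filter, 24 with a higher mean in the shRNA 1 livers and 4 in the shRNA 2 livers, with a median difference of 0.31. None passed, but 13 of the 28 had an unadjusted p under 0.05 toward shRNA 1 and none toward shRNA 2, where 3.32% and 2.70% of all genes did. As mean deviations over the list the arrays stood at 0.06, 0.15 and 0.27 in the shRNA 1 livers and -0.13, -0.23 and -0.13 in the shRNA 2 livers, and the controls at -0.26 to -0.12. The shRNA 1 livers were therefore the group that stood apart, and the shRNA 2 livers were inside the control range.

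Gstm3 led this list, followed by Aox1, Ephx1 and Me1. Aox1, an aldehyde oxidase, had 8.16, 8.55 and 8.51 in the shRNA 1 livers and 7.92, 7.55 and 7.53 in the shRNA 2 livers, a difference of 0.74 (SE 0.15, adjusted p = 0.299). Ephx1, the microsomal epoxide hydrolase, had 10.87, 10.96 and 11.04 in the shRNA 1 livers and 10.55, 10.34 and 10.49 in the shRNA 2 livers, a difference of 0.49 (SE 0.11, adjusted p = 0.31). Me1, the malic enzyme that makes NADPH for fat synthesis, had 10.87, 10.73 and 10.84 in the shRNA 1 livers and 10.01, 10.13 and 9.49 in the shRNA 2 livers, a difference of 0.94 (SE 0.21, adjusted p = 0.33). In Ephx1 and Me1, no control exceeded the lowest shRNA 1 liver, whereas Aox1 controls reached 8.47. Of the glutathione transferases 18 of the 25 listed genes passed the level filter, 15 with a higher mean in the shRNA 1 livers and 3 in the shRNA 2 livers, with a median difference of 0.34. Toward shRNA 1, 9 of the 18 had an unadjusted p under 0.05, against 3.32% of all genes, and none did toward shRNA 2. Gsta3, an alpha-class enzyme, had 10.45, 10.68 and 10.67 in the shRNA 1 livers and 10.14, 10.20 and 10.12 in the shRNA 2 livers, a difference of 0.45 (SE 0.12, adjusted p = 0.532). Gstm1 had 8.41, 8.32 and 8.41 in the shRNA 1 livers and 7.87, 7.71 and 7.97 in the shRNA 2 livers, a difference of 0.53 (SE 0.14, adjusted p = 0.532), and Gsta4, which conjugates lipid aldehydes, differed by 0.72 (SE 0.24, adjusted p = 0.699) with overlap. Near-identical copies within the alpha and mu classes can share probe signal, so single members are uncertain. The NRF2, transferase and CAR lists share Gstm1 and Gstm3, and the NRF2 and transferase lists also share Gsta3. Their medians and counts are therefore not independent.

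The letters TGACNNNGC, the core of the antioxidant response element that NRF2 binds, were searched on both strands of the 250 bases before each start. They occurred in 11.5% of all promoters and in 7 of the 24 tested NRF2 targets with an entry (Abcc2, Abcc4, Gclm, Gsta3, Mgst1, Txnrd1 and Ugdh). That of Gsta3 (RefSeq, GRCm38.p6, chr1:21240335-21240584, plus strand) is shown as the one whose levels are given here, with the match in capitals.
Gsta3: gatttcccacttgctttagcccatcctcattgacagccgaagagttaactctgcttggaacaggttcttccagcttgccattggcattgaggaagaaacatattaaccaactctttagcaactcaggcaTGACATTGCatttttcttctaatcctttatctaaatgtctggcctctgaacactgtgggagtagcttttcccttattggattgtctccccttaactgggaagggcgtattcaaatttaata
Ugdh, which makes the donor for glucuronidation, differed by 0.53 (SE 0.12, adjusted p = 0.379), whereas Txnrd1 differed by 0.18 and Abcc4 by -0.01.

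**Figure D5:**
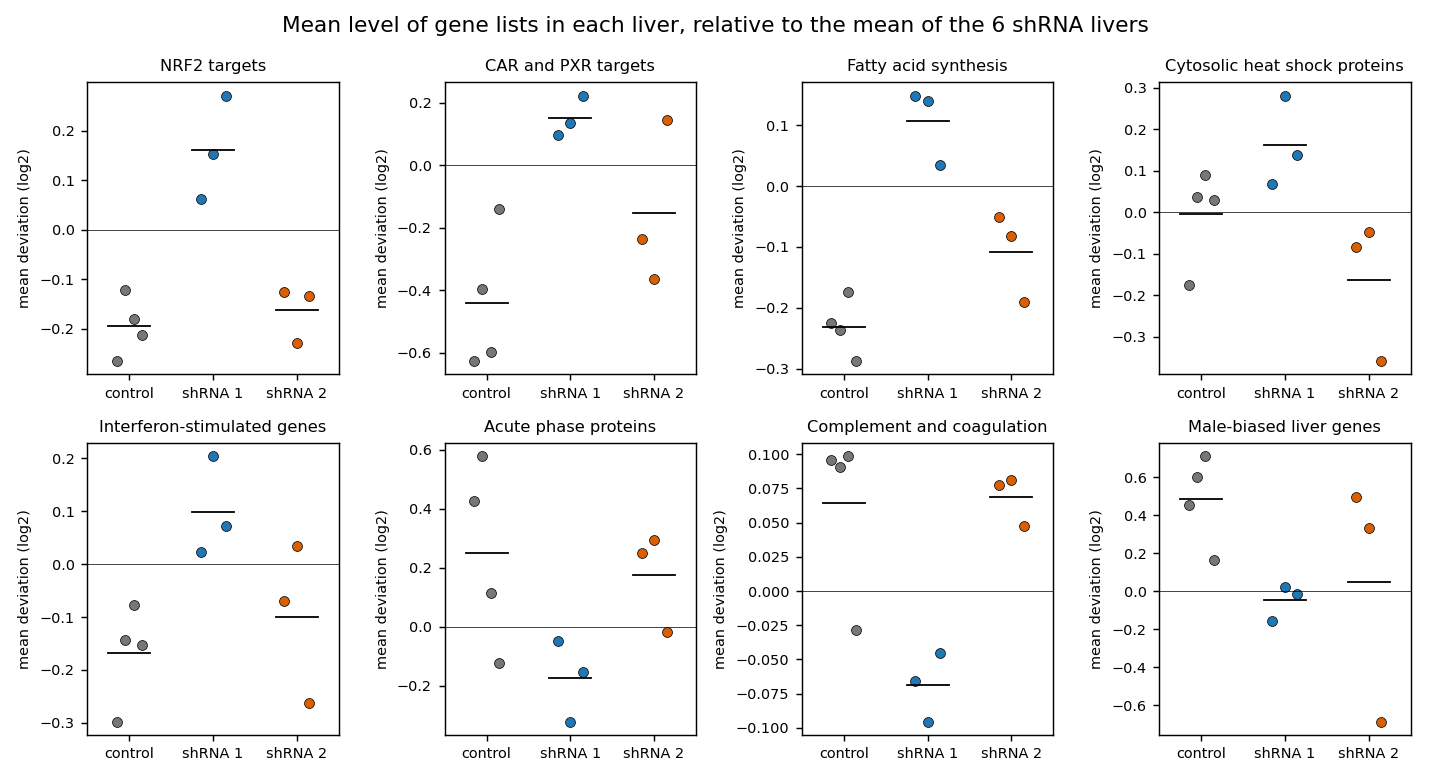
Mean deviation of the tested members of 8 gene lists from their mean over the 6 shRNA livers (log2 units, y axis), 1 point per liver and a line at each group mean. NRF2 targets, fatty acid synthesis and heat shock proteins are higher in every shRNA 1 liver than in any shRNA 2 liver, acute phase and complement and coagulation proteins are lower, and the CAR and PXR, interferon and male-biased lists overlap through 1 shRNA 2 liver each.

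CAR and PXR targets had a similar median but were less even. There 30 of the 39 listed genes passed the level filter, 23 with a higher mean in the shRNA 1 livers and 7 in the shRNA 2 livers, with a median difference of 0.34. Toward shRNA 1, 12 of the 30 had an unadjusted p under 0.05, against 3.32% of all genes, and none did toward shRNA 2. Mean deviations were 0.10, 0.14 and 0.22 in the shRNA 1 livers and -0.24, -0.36 and 0.14 in the shRNA 2 livers, so replicate 3 of shRNA 2 lay among the shRNA 1 livers. Cyp2c38, a drug-metabolizing cytochrome, had 9.35, 10.001 and 10.28 in the shRNA 1 livers and 8.97, 8.26 and 8.14 in the shRNA 2 livers, a difference of 1.42 (SE 0.38, adjusted p = 0.532). Ces2a, a carboxylesterase, had 10.56, 10.71 and 10.87 in the shRNA 1 livers and 10.40, 10.08 and 10.50 in the shRNA 2 livers, a difference of 0.39 (SE 0.13, adjusted p = 0.687). Cyp2b9, a female-biased CAR target, had 10.14, 9.97 and 9.80 in the shRNA 1 livers and 6.90, 9.36 and 10.45 in the shRNA 2 livers, a difference of 1.07 (SE 1.25, adjusted p = 0.964). Its controls were 4.01, 5.95, 3.64 and 9.35, a span of more than 5 log2 units. Outside this list, Cyp2c39 had 5.09, 5.85 and 5.82 in the shRNA 1 livers and 3.47, 4.46 and 4.53 in the shRNA 2 livers, a difference of 1.43 (SE 0.34, adjusted p = 0.401). For Cyp2c38, Cyp2c39 and Cyp2b9, control 4 was the highest control, at 9.88, 5.05 and 9.35, closer to the shRNA 1 livers than the other 3 controls were. The same held for Csad. Among oxidoreductases of alcohols, aldehydes and retinol, 33 of the 35 listed genes passed the level filter, 23 with a higher mean in the shRNA 1 livers and 10 in the shRNA 2 livers, with a median difference of 0.07. Aldh1a1, which makes retinoic acid, had 12.09, 12.38 and 12.24 in the shRNA 1 livers and 11.93, 11.88 and 11.38 in the shRNA 2 livers and a difference of 0.51 (SE 0.18, adjusted p = 0.723), and Rdh16, a retinol dehydrogenase, had 8.96, 8.57 and 8.94 in the shRNA 1 livers and 8.16, 7.94 and 8.21 in the shRNA 2 livers and 0.72 (SE 0.26, adjusted p = 0.723).

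Genes of fat synthesis were higher on the shRNA 1 side, and sterol genes were not. For fatty acid synthesis 24 of the 25 listed genes passed the level filter, 19 with a higher mean in the shRNA 1 livers and 5 in the shRNA 2 livers, with a median difference of 0.18. None passed, and none had an unadjusted p under 0.05 toward shRNA 2. Toward shRNA 1, 6 of the 24 had such a p, against 3.32% of all genes, and 8 did not overlap, against 5.94%. Besides Acss2 and Me1 the leading members were Acly and Lpin1. Acly, which cleaves citrate to acetyl-CoA, had 10.93, 10.91 and 10.62 in the shRNA 1 livers and 10.44, 10.47 and 10.35 in the shRNA 2 livers, a difference of 0.40 (SE 0.13, adjusted p = 0.687). Lpin1, a phosphatidate phosphatase that is also a glucocorticoid target, had 11.67, 11.19 and 10.98 in the shRNA 1 livers and 10.89, 10.60 and 9.28 in the shRNA 2 livers, a difference of 1.02 (SE 0.33, adjusted p = 0.687). Without the low replicate 3 of shRNA 2 that difference was 0.53. Cholesterol synthesis and uptake pointed the other way: 19 of the 25 listed genes passed the level filter, 4 with a higher mean in the shRNA 1 livers and 15 in the shRNA 2 livers, with a median difference of -0.09, with none at an unadjusted p under 0.05. Mvk, mevalonate kinase, differed by -0.24 (SE 0.14, adjusted p = 0.9) and Mvd, mevalonate decarboxylase, by -0.28 (SE 0.21, adjusted p = 0.922).

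Fatty acid oxidation under PPAR-alpha stayed near the background, since 28 of the 32 listed genes passed the level filter, 11 with a higher mean in the shRNA 1 livers and 17 in the shRNA 2 livers, with a median difference of -0.04. Of the 28, 2 had an unadjusted p under 0.05, both toward shRNA 2, against 2.70% of all genes. Cpt1a, which admits long-chain fatty acids to mitochondria, had 10.93, 10.49 and 10.56 in the shRNA 1 livers and 11.01, 10.99 and 11.07 in the shRNA 2 livers, a difference of -0.37 (SE 0.11, adjusted p = 0.687). Ppara itself had 8.76, 8.55 and 8.68 in the shRNA 1 livers and 8.88, 8.97 and 9.02 in the shRNA 2 livers, a difference of -0.29 (SE 0.10, adjusted p = 0.687). Neither gene overlapped, with the shRNA 1 livers the lower ones. Glucose production and glycogen turnover leaned toward shRNA 1: 19 of the 22 listed genes passed the level filter, 17 with a higher mean in the shRNA 1 livers and 2 in the shRNA 2 livers, with a median difference of 0.15. Of the 19, 6 had an unadjusted p under 0.05, all toward shRNA 1, against 3.32% of all genes. Pck1, the rate-limiting enzyme of gluconeogenesis, had 12.39, 12.08 and 12.05 in the shRNA 1 livers and 11.76, 11.82 and 11.71 in the shRNA 2 livers, a difference of 0.41 (SE 0.13, adjusted p = 0.687). Ppargc1a, the coactivator of fasting and mitochondrial genes, had 7.55, 7.49 and 7.22 in the shRNA 1 livers and 6.72, 6.77 and 7.28 in the shRNA 2 livers, which overlap through replicate 3 of shRNA 2, and a difference of 0.50 (SE 0.16, adjusted p = 0.687). Without that replicate the list's median was 0.08. Glycolysis and the pentose phosphate pathway had medians of -0.01 and -0.02. In the urea cycle and amino acid catabolism 34 of the 38 listed genes passed the level filter, 26 with a higher mean in the shRNA 1 livers and 8 in the shRNA 2 livers, with a median difference of 0.12, and 11 of the 34 lay without overlap toward shRNA 1, against 5.94% of all genes. Slc25a15, the mitochondrial ornithine carrier, had 10.87, 10.84 and 10.67 in the shRNA 1 livers and 10.54, 10.58 and 10.36 in the shRNA 2 livers, a difference of 0.30 (SE 0.10, adjusted p = 0.687). Gldc, of the glycine cleavage system, had 9.71, 9.89 and 9.92 in the shRNA 1 livers and 9.52, 9.59 and 9.66 in the shRNA 2 livers, a difference of 0.25 (SE 0.11, adjusted p = 0.806).

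Acute phase proteins and proteins of complement and coagulation, plasma proteins made by hepatocytes, had mostly lower means on the shRNA 1 side. Of the acute phase proteins, whose synthesis rises in inflammation, 24 of the 27 listed genes passed the level filter, 4 with a higher mean in the shRNA 1 livers and 20 in the shRNA 2 livers, with a median difference of -0.22. None passed. Toward shRNA 2, 4 of the 24 had an unadjusted p under 0.05, against 2.70% of all genes, and none did toward shRNA 1. On the shRNA 2 side 10 of the 24 lay without overlap, against 5.36% of all genes. Fgl1 and Apcs led the list. Itih3, a hyaluronan-binding inhibitor, had 11.06, 11.05 and 11.002 in the shRNA 1 livers and 11.32, 11.37 and 11.37 in the shRNA 2 livers, a difference of -0.31 (SE 0.08, adjusted p = 0.563). Hp, haptoglobin, had 12.52, 12.44 and 12.47 in the shRNA 1 livers and 12.86, 12.85 and 12.62 in the shRNA 2 livers, a difference of -0.30 (SE 0.13, adjusted p = 0.806). Saa2 and Lcn2, which rise steeply in inflammation, varied widely within groups. Saa2, serum amyloid A, had 7.51, 6.90 and 7.49 in the shRNA 1 livers and 10.58, 11.12 and 7.09 in the shRNA 2 livers and 11.76, 12.27, 9.69 and 7.20 in the controls, so its difference of -2.30 (SE 1.21, adjusted p = 0.875) came with a SE above 1. Lcn2, lipocalin, had 6.97, 6.02 and 6.82 in the shRNA 1 livers and 7.93, 8.68 and 6.56 in the shRNA 2 livers, a difference of -1.12 (SE 0.64, adjusted p = 0.891). In both, replicates 1 and 2 of shRNA 2 were high and replicate 3 was level with the shRNA 1 livers.

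Complement and coagulation proteins differed less, with little spread between replicates: 30 of the 37 listed genes passed the level filter, 5 with a higher mean in the shRNA 1 livers and 25 in the shRNA 2 livers, with a median difference of -0.13. None passed, and 5 had an unadjusted p under 0.05, all toward shRNA 2, against 2.70% of all genes. List means were -0.07, -0.10 and -0.05 in the shRNA 1 livers and 0.08, 0.08 and 0.05 in the shRNA 2 livers, with an SD between replicates of 0.022, so each shRNA 1 liver was below each shRNA 2 liver. C8a and C8b encode chains of the same pore-forming component. C8a had 10.93, 10.98 and 10.90 in the shRNA 1 livers and 11.38, 11.35 and 11.08 in the shRNA 2 livers, a difference of -0.33 (SE 0.10, adjusted p = 0.687), and C8b had 11.89, 11.92 and 11.88 in the shRNA 1 livers and 12.22, 12.32 and 12.07 in the shRNA 2 livers, a difference of -0.31 (SE 0.10, adjusted p = 0.699). Controls for C8a were 11.46, 11.34, 11.37 and 11.28, all above the shRNA 1 livers. Mbl2, a lectin that starts complement, had 9.92, 9.98 and 9.84 in the shRNA 1 livers and 10.10, 10.15 and 10.52 in the shRNA 2 livers, a difference of -0.34 (SE 0.12, adjusted p = 0.723). Both C8 genes are also male-biased, and that list is given with the sex-biased genes.

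Interferon-stimulated genes, the antiviral program that interferons induce, leaned toward shRNA 1. On this list 36 of the 45 listed genes passed the level filter, 29 with a higher mean in the shRNA 1 livers and 7 in the shRNA 2 livers, with a median difference of 0.19. None passed, and none had an unadjusted p under 0.05 toward shRNA 2. Toward shRNA 1, 5 of the 36 had such a p, against 3.32% of all genes, and 7 did not overlap, against 5.94%. Gbp3, a guanylate-binding GTPase, had 5.39, 5.28 and 5.21 in the shRNA 1 livers and 4.29, 4.81 and 4.74 in the shRNA 2 livers, a difference of 0.68 (SE 0.14, adjusted p = 0.281). Igtp, an immunity-related GTPase, had 7.50, 8.18 and 8.08 in the shRNA 1 livers and 7.11, 7.44 and 7.12 in the shRNA 2 livers, a difference of 0.70 (SE 0.18, adjusted p = 0.532). Trim12a, a relative of the retroviral restriction factor TRIM5, had 6.90, 6.88 and 7.04 in the shRNA 1 livers and 6.26, 6.62 and 6.59 in the shRNA 2 livers, a difference of 0.45 (SE 0.12, adjusted p = 0.583). With Xaf1 these were the 4 leading members. With the clock index as a covariate the median of the list was 0.05, the lowest of any setting, and without replicate 2 of shRNA 2 it was 0.27. Trim12a is also among genes that differ between inbred mouse strains, of which 10 of 24 passed the filter with a median difference of 0.12. The labels give no strain.

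The promoters of Gbp3 and Igtp are shown because both hold the interferon-stimulated response element, taken as GAAA, any 2 bases and again GAAA, searched on both strands and marked in capitals. Gbp3 (chr3:142559794-142560043, plus strand) has 2 overlapping matches on the opposite strand, and Igtp (chr11:58199306-58199555, plus strand) has 1 match, 34 bases before the start.
Gbp3: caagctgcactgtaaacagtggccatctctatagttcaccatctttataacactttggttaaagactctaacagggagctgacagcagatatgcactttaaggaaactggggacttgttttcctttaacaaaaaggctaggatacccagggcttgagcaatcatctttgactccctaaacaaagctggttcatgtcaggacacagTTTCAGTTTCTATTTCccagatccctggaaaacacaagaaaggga
Igtp: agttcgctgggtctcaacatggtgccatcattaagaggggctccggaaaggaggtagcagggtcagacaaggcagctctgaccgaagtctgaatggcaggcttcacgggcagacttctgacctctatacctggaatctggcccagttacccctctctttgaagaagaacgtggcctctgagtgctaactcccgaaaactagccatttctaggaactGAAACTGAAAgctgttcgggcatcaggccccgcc
Of 26 tested members with a promoter in RefSeq's GRCm38.p6 table, 13 held these letters, against 3.46% of all promoters. Ifit1, Isg15 and Oas3 are among those 13.

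Antigen presentation genes were mixed: 16 of the 22 listed genes passed the level filter, 11 with a higher mean in the shRNA 1 livers and 5 in the shRNA 2 livers, with a median difference of 0.05. Of these, 4 had an unadjusted p under 0.05 toward shRNA 1 and 1 toward shRNA 2, against 3.32% and 2.70% of all genes. H2-Ab1, a chain of the class II molecule, had 8.42, 8.94 and 9.02 in the shRNA 1 livers and 8.27, 7.82 and 7.61 in the shRNA 2 livers, a difference of 0.89 (SE 0.33, adjusted p = 0.739). Ciita, the class II transactivator, had 5.58, 5.44 and 5.63 in the shRNA 1 livers and 5.27, 5.25 and 5.24 in the shRNA 2 livers, a difference of 0.30 (SE 0.12, adjusted p = 0.784), and H2-Eb1 had 6.99, 7.16 and 7.56 in the shRNA 1 livers and 6.93, 6.71 and 6.84 in the shRNA 2 livers, a difference of 0.41 (SE 0.18, adjusted p = 0.799). In the controls H2-Ab1 was 7.53, 7.69, 7.45 and 8.91, so control 4 alone reached the shRNA 1 range. Class II genes are polymorphic between strains, and probe binding can follow the allele. H2-M3, a nonclassical class I gene, went the other way at -0.25 (SE 0.11, adjusted p = 0.797).

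All livers came from males, yet sex-biased genes, which follow the pulses of growth hormone, varied widely. Of male-biased genes 24 of the 29 listed genes passed the level filter, 8 with a higher mean in the shRNA 1 livers and 16 in the shRNA 2 livers, with a median difference of -0.18. None passed and 4 had an unadjusted p under 0.05, all toward shRNA 2, against 2.70% of all genes. List means were -0.16, 0.02 and -0.01 in the shRNA 1 livers and 0.50, 0.33 and -0.69 in the shRNA 2 livers. Replicate 3 of shRNA 2 was the lowest liver of the 6, and without it the median was -0.36. Without replicate 1 of shRNA 2 it was -0.04. Cspg5, a proteoglycan, had 4.17, 4.39 and 4.34 in the shRNA 1 livers and 5.23, 5.15 and 4.52 in the shRNA 2 livers, a difference of -0.67 (SE 0.17, adjusted p = 0.515). Selenbp2, a selenium-binding protein, had 11.09, 10.98 and 10.73 in the shRNA 1 livers and 11.91, 11.93 and 11.19 in the shRNA 2 livers, a difference of -0.74 (SE 0.28, adjusted p = 0.739). Female-biased genes gave a median of 0.01 over the 16 of 27 that passed the filter, with list means of 0.07, 0.04 and -0.04 in the shRNA 1 livers and -0.60, -0.32 and 0.85 in the shRNA 2 livers. Slc22a27, an organic anion transporter, had 6.34, 5.79 and 5.67 in the shRNA 1 livers and 2.74, 4.20 and 5.96 in the shRNA 2 livers, and Cyp2a4, a steroid hydroxylase, had 9.88, 8.96 and 8.71 in the shRNA 1 livers and 10.63, 8.21 and 11.75 in the shRNA 2 livers. Both thus spread over at least 3 log2 units within shRNA 2. Cyp2c69 had 9.98, 9.32 and 9.14 in the shRNA 1 livers and 10.003, 10.78 and 10.77 in the shRNA 2 livers, without overlap and with a difference of -1.04 (SE 0.35, adjusted p = 0.699). Of growth hormone signalling, Stat5b, the factor that carries the hormone's signal, had 8.52, 8.69 and 8.70 in the shRNA 1 livers and 8.29, 8.42 and 8.29 in the shRNA 2 livers, a difference of 0.31 (SE 0.10, adjusted p = 0.687), and Bcl6, its repressor counterpart, had 5.91, 7.79 and 7.35 in the shRNA 1 livers and 5.31, 6.88 and 5.32 in the shRNA 2 livers, which overlap widely. The list's median was -0.09.

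Mitochondrial genes, nearest to the biology of SOD2, showed little separation. Complex I subunits had a median difference of 0.02 over 32 of 37 genes, complexes II to IV 0.06 over 23 of 25, and ATP synthase 0.06 over 14 of 16, and none had an unadjusted p under 0.05 in any of these 3 lists. Cycs, cytochrome c, had 10.98, 11.05 and 11.01 in the shRNA 1 livers and 10.80, 10.85 and 10.89 in the shRNA 2 livers, a difference of 0.17 (SE 0.09, adjusted p = 0.861). In the TCA cycle and pyruvate entry 21 of the 22 listed genes passed the level filter, 15 with a higher mean in the shRNA 1 livers and 6 in the shRNA 2 livers, with a median difference of 0.06. Idh2, which makes NADPH in the matrix, had 9.32, 9.15 and 9.13 in the shRNA 1 livers and 8.70, 8.77 and 9.16 in the shRNA 2 livers, a difference of 0.32 (SE 0.12, adjusted p = 0.772). Mitochondrial biogenesis and proteostasis had medians of -0.01 and 0.06. Hspd1, the matrix chaperonin, had 10.29, 10.22 and 10.21 in the shRNA 1 livers and 10.10, 10.05 and 10.11 in the shRNA 2 livers, a difference of 0.15 (SE 0.09, adjusted p = 0.896), small but without overlap.

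Stress programs of the endoplasmic reticulum and of ATF4 had medians of 0.08 and 0.04. Herpud1, of protein degradation at the endoplasmic reticulum, had 11.51, 11.58 and 11.46 in the shRNA 1 livers and 11.19, 11.29 and 10.94 in the shRNA 2 livers, a difference of 0.38 (SE 0.12, adjusted p = 0.687), and Vldlr, a lipoprotein receptor, had 4.78, 5.28 and 5.75 in the shRNA 1 livers and 4.16, 4.25 and 4.40 in the shRNA 2 livers, a difference of 1.00 (SE 0.31, adjusted p = 0.687). Cebpb, a transcription factor of the acute phase and of glucocorticoid responses, had 7.83, 7.32 and 7.09 in the shRNA 1 livers and 7.08, 6.75 and 6.60 in the shRNA 2 livers, a difference of 0.60 (SE 0.18, adjusted p = 0.686). In bile acid synthesis and transport the median was 0.05, with members on both sides. Cyp39a1, an oxysterol hydroxylase, had 9.51, 9.43 and 9.73 in the shRNA 1 livers and 9.06, 9.13 and 9.24 in the shRNA 2 livers, a difference of 0.41 (SE 0.15, adjusted p = 0.723), while Abcg5, a sterol exporter, had 9.01, 8.67 and 8.98 in the shRNA 1 livers and 9.16, 9.15 and 9.46 in the shRNA 2 livers, a difference of -0.37 (SE 0.12, adjusted p = 0.687). Of cell cycle genes 27 of the 30 listed genes passed the level filter, 7 with a higher mean in the shRNA 1 livers and 20 in the shRNA 2 livers, with a median difference of -0.09. Rrm2, a subunit of ribonucleotide reductase, had 6.29, 5.78 and 5.95 in the shRNA 1 livers and 5.61, 5.58 and 5.51 in the shRNA 2 livers and Mcm5, of the replicative helicase, had 5.64, 5.45 and 5.44 in the shRNA 1 livers and 6.01, 5.94 and 5.71 in the shRNA 2 livers, with differences of 0.44 (SE 0.14, adjusted p = 0.687) and -0.38 (SE 0.15, adjusted p = 0.784). The other lists, fetal and imprinted growth genes, iron and heme handling, Cyp2 cytochromes, conjugating transferases and lysosome, had medians of -0.19, 0.03, -0.03, 0.01 and -0.01, with no gene that passed.

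Makeup of the tissue was read from marker lists, most of which overlapped between the hairpins in their summed levels. Hepatocyte markers summed to 16.18 to 16.22 in the shRNA 1 livers, 16.12 to 16.16 in the shRNA 2 livers and 16.14 in each control, on the log2 scale. These sums did not overlap between the hairpins. Nor did those of sinusoidal endothelium, at 12.41 to 12.42 in the shRNA 1 livers and 12.28 to 12.36 in the shRNA 2 livers. Erythroid markers summed to 7.87 to 7.95 in the shRNA 1 livers and 7.95 to 8.08 in the shRNA 2 livers. T and NK cell markers summed to 8.03 to 8.19 in the shRNA 1 livers and 7.87 to 8.17 in the shRNA 2 livers. Markers of pericentral and periportal hepatocytes had medians of 0.04 and -0.01, although Cyp1a2, a pericentral cytochrome, had 12.02, 11.98 and 12.12 in the shRNA 1 livers and 11.78, 11.78 and 11.64 in the shRNA 2 livers, a difference of 0.31 (SE 0.11, adjusted p = 0.723). Of 12 markers of sinusoidal endothelium, 11 had a higher mean in the shRNA 1 livers, with a median of 0.06, and Clec4g, a lectin of these cells, had 9.87, 9.80 and 9.99 in the shRNA 1 livers and 9.60, 9.71 and 9.34 in the shRNA 2 livers, a difference of 0.34 (SE 0.13, adjusted p = 0.746). Stellate cell markers had a median of -0.01. Of cholangiocyte markers 5 of 10 passed the filter, 2 with a higher mean in the shRNA 1 livers and 3 in the shRNA 2 livers. Epcam had 4.05, 3.84 and 3.90 in the shRNA 1 livers and 4.19, 4.46 and 4.23 in the shRNA 2 livers, a difference of -0.36 (SE 0.14, adjusted p = 0.784). Pkhd1 went the other way, with 5.74, 5.82 and 5.80 in the shRNA 1 livers and 5.47, 5.65 and 5.62 in the shRNA 2 livers. Its difference was 0.21 (SE 0.13, adjusted p = 0.905), also without overlap. The defining Krt19 stayed below the filter at 3.63 to 3.96 over the 10 arrays. Neutrophil, pancreatic and adipocyte markers lay mostly below the filter, 9 of 10, 6 of 8 and 4 of 7 measured genes. Their part in the differences above was not tested.

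Most of the large differences did not pass. Of the 25 genes that differed by more than 1 log2 unit, Ctse was the 1 that passed. Cdkn1a, the cell cycle inhibitor p21 and a glucocorticoid target, had 7.84, 9.02 and 8.50 in the shRNA 1 livers and 7.09, 7.96 and 6.02 in the shRNA 2 livers, a difference of 1.43 (SE 0.62, adjusted p = 0.804), with overlap. Esm1, an endothelial proteoglycan, had 3.94, 3.29 and 3.43 in the shRNA 1 livers and 4.20, 4.02 and 6.35 in the shRNA 2 livers, a difference of -1.31 (SE 0.64, adjusted p = 0.851), and of -0.56 without replicate 3 of shRNA 2.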

How the data were processed

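RNA of 10 mouse livers (3 shRNA 1, 3 shRNA 2, 4 control) was hybridised to Affymetrix whole-transcript arrays. The values are normalized log2 levels per transcript cluster that the authors deposited; Affymetrix Expression Console made them, per the submitters' processing notes, and its version, background step, normalization and build are stated in none of the labels or headers. Precision is limited by the number of arrays. Of 41345 clusters, 23521 had 1 symbol, 1814 several and 16010 none; 23328 single-symbol clusters matched RefSeq's GRCm38.p6 genes by Entrez identifier, and no symbol changed. Each gene kept its cluster of highest mean, and genes under the 40th percentile of mean level were left out. Group means over all 10 arrays were fitted with limma 3.58.1 (R 4.3.3), tested two-sided on their difference and adjusted by Benjamini-Hochberg over all genes; the script was tested on simulated data. No 2 arrays held identical values. After each gene's group mean was subtracted, the deviations of same-numbered shRNA arrays correlated at -0.018, 0.158 and -0.074, so numbers did not pair them.

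Named genes were up to 15 per direction past the threshold, filled to 12 by unadjusted p (predicted and noncoding symbols passed over), up to 4 leading members of each described list, 5 neighbours on each side and the 5 closest patterns of each gene that passed. Members and lists were chosen with earlier results of these data known. Alternatives changed normalization, filter, cluster choice, weights, prior, threshold and arrays. Promoters came from a RefSeq table that held 17 of the 24 leading genes.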

Additional observations from a re-analysis of the deposited data

Results flagged for a closer look

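Ctse differed between the hairpin groups by -2.40 and Dusp1 by 0.99 (shRNA 1 minus shRNA 2, limma), each past the adjusted threshold. Of the 4 controls, 3 come from the cohort of the shRNA 2 livers. All 4 had Ctse at 3.90 to 4.03 against 6.24 to 6.33 in the shRNA 2 livers, and Dusp1 at 7.96 to 8.37 against 7.40 to 7.57. For both genes the shRNA 2 livers thus lay outside the range of the 4 controls. The part of hairpin or cohort in this was not tested.

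Of the control values shown beside the hairpin groups, 9 genes had 1 control liver far from the other 3, where chance sets off about 1 in 20 groups and 125 genes were looked at. The 125 genes share the same 4 livers, so they are not independent groups. Gbe1 was 8.82 in 1 control and 8.94 to 8.97 in the others, and Acss2 was 9.48 against 9.74 to 9.78. Low single controls were also found for Gsta3 (9.80, next 10.13), Me1 (9.35, next 10.01), Zbtb16 (8.23, next 8.93) and Sgk1 (5.17, next 5.48). High single controls were found for Cyp2c39 (5.05, next 3.99), H2-Ab1 (8.91, next 7.69) and Epcam (4.51, next 4.06). The liver set apart was control 1 for Acss2, Gsta3, Me1 and Zbtb16. It was control 4 for Gbe1, Sgk1, Cyp2c39 and H2-Ab1, and control 2 for Epcam.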

How the results depend on the processing

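The count of genes past the threshold, 2 (1 higher in shRNA 1, 1 higher in shRNA 2), moved with the processing. It was 1 (0 and 1) with quantile normalization, with every cluster tested by itself and at an adjusted p of 0.01, 4 (2 and 2) with median centring, 1 (1 and 0) with the filter at the 60th percentile, where Ctse was not tested, 6 (3 and 3) when arrays were weighted, 7 (4 and 3) when the prior was robust and followed intensity, and 8 (5 and 3) at an adjusted p of 0.1. The replicate number as a block (the replicate block) gave 4 (2 and 2), although same-numbered arrays did not deviate together; not every array correlated best with its own number. With the clock index as covariate, chosen after seeing the data, it was 1 (0 and 1). Leaving out 1 array gave 1 to 4 genes, 0 to 2 toward shRNA 1 and 1 to 2 toward shRNA 2; the 4 without control 4 were Csad, Ctse, Dusp1 and Fgl1. Without any filter, with mean clusters and with the 6 shRNA arrays alone it stayed at 2, in the last case Csad and Ctse. Gstm3 and Fgl1 passed in 2 and 3 settings, Xdh and Cep85l in 1 each. Sod2 changed sign without shRNA 2 replicate 3 (-0.0136) and ran from -0.01 to 0.10 when 1 array was left out. No leading gene changed direction. Not every other named gene was run through the settings, and of the 100 that were, Cyp2a4 changed direction, to 0.28 with the clock index. The causes of these changes were not tested. Of the list medians, that of the core clock turned from -0.07 to 0.11 with the clock index, and that of female-biased genes ran from -0.18 to 0.24 over left-out arrays.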

Other observations

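Clusters that carry no gene symbol or several were also tested, each by itself. None passed the threshold, with a lowest adjusted p of 0.194 among clusters without a symbol and 0.867 among clusters with several.

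Across the 10 arrays, several genes placed control 4 near the shRNA 1 livers and away from the other 3 controls. Csad was 9.52 in control 4 and 7.93 to 8.72 in the others, Cyp2b9 9.35 against 3.64 to 5.95, Cyp2c38 9.88 against 8.15 to 9.02 and H2-Ab1 8.91 against 7.45 to 7.69. These genes were chosen after their values were seen. For Cyp2b9, control 4 also lay inside the shRNA 2 range of 6.90 to 10.45. Some leading genes did not share the pattern. Gstm3 was 8.08 in control 4 against 9.14 to 9.70 in the shRNA 1 livers, and Gbe1 was 8.82 against 9.31 to 9.44. The labels do not say to which cohort control 4 belongs.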
